A study of Mus musculus with 3 samples.

Results

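Slc25a37 encodes mitoferrin, a carrier in the inner mitochondrial membrane that brings iron into the mitochondrion. The contacts of its promoter with the rest of chromosome 14 were followed in mouse erythroid cells by Nuclear-Titrated Capture-C. In this assay fixed chromatin is cut with DpnII, fragments that lie close in the nucleus are ligated, and probes pull out the products that involve a chosen fragment, called a viewpoint. The table names a viewpoint in each line, and the lines that name Slc25a37 were taken: 1 viewpoint of 7184 names, with 7644 contacted fragments of 47812899 contacts in the whole table. The 3 libraries form 1 group, with no control. They were made from ter119+ cells of the spleens of F1 hybrid mice (C57BL/6 crossed with CBA/J) given phenylhydrazine, which destroys red cells so that the spleen fills with erythroid precursors. The labels give 3 doses of 40 mg per g, 12 h apart, and death on day 5. The dose is printed as labelled, and mg per kg may have been meant. The labels do not give the age of the mice. Cells were selected with beads against ter119, a surface marker of late erythroid cells. The files hold contacts and no expression, so the cell type could not be checked against marker genes, and the parental alleles of the hybrid cannot be told apart. The value columns are unnamed, and their libraries go by a, b and c here.

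Developing red cells take up iron through the transferrin receptor and pass it into mitochondria, where it is built into heme and iron-sulfur clusters. Mitoferrin carries the iron over the inner membrane, and its loss blocks hemoglobin production. Erythroid promoters are commonly controlled by elements at some distance, many of them bound by GATA1, which reads a GATA hexamer, and by KLF1, which reads CACCC boxes. The positions of enhancers were not used here, so a contacted stretch is described by its position and its genes only.

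Slc25a37 lies on the minus strand of chromosome 14, from 69859908 to 69903160 in mm9, with 4 exons, and upstream of the gene therefore means higher coordinates. The viewpoint, chr14:69902454-69903469, is a fragment of 1016 bases holding the promoter and exon 1.

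The Slc25a37 viewpoint gave 3919 cis ligation events in library a, 5908 in b and 5723 in c, together 15550, against a median of 6482 over 7176 viewpoints. It stood in place 1150 from the deepest. Over fragments between 2.5 kb and 1 Mb, the squared correlation between libraries was 0.808 for the pair b and c, and 0.796 (with b) and 0.793 (with c) for library a (4190 fragments, which are not independent replicates). For each pair of libraries a chi-square per fragment was taken over the fragments with an event in either (1072 to 1198 fragments). It lay between 0.957 and 0.968 for the 3 pairs, where counting error alone gives about 1. Fragments with few events can hardly show a larger spread, so a value near 1 does not exclude one. Over all viewpoints from 10 to 100 kb the chi-square was 0.951 for b with c, and 0.998 and 0.992 for a with each of them. By this measure no pair stood out at this viewpoint, and each mean and SD is over the 3 libraries (n = 3). Nothing in the labels says that the libraries came from separate mice, so their spread may be technical.

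The promoter kept its contacts close by. Within 100 kb lay 45.1% of the cis events of library a, 37.9% of library b and 40.7% of library c (mean 41.2% ± 3.62, SD, n = 3). All the libraries were above the median viewpoint, at 23.5%, and also above the 90th percentile of viewpoints, at 33.2%. In the sum of the libraries the share was 40.7% (95% Clopper-Pearson interval 39.9 to 41.5), place 144 of 6718 viewpoints with at least 1000 events. Libraries b and c did differ in this share (two-sided Fisher's exact p = 0.00209), and a lay above both (exact p = 1.56e-12 against b and 2.06e-05 against c). These intervals and p-values cover counting error only. The 10 to 50 kb range alone held 25.1% of all cis events (interval 24.5 to 25.8), and the 50 to 100 kb range 5.36% (5.01 to 5.73).

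Contacts also thinned out with distance faster than at almost all other viewpoints. Between 10 kb and 1 Mb the slope of the log10 mean count per fragment on log10 distance was -1.46 in library a, -1.38 in b and -1.39 in c (mean -1.41 ± 0.04, SD, n = 3). The slope of the sum was -1.40, against a median of -0.89 over 4346 viewpoints with at least 5000 events. Only 10 of these viewpoints were steeper.

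**Figure D1:**
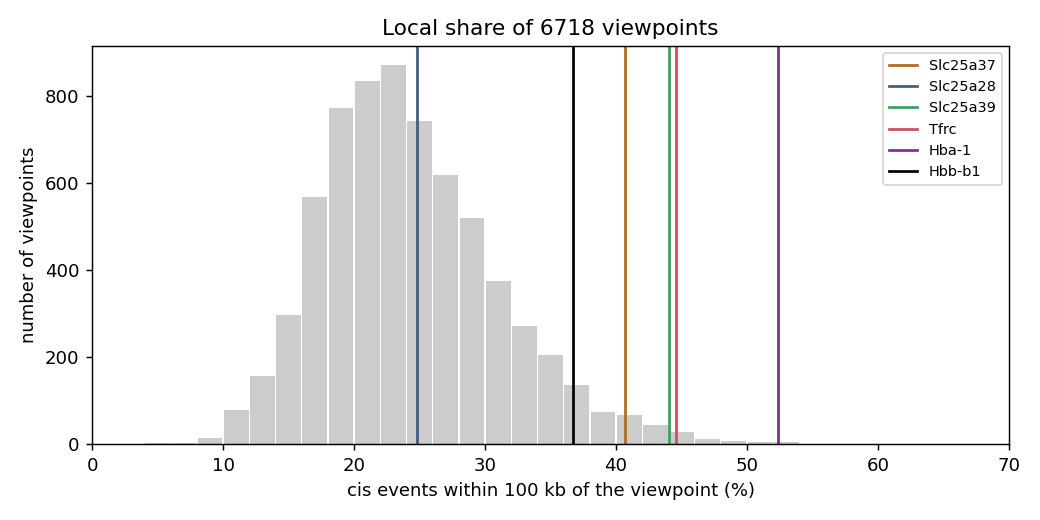
Number of viewpoints (vertical axis, grey bars of 2 percentage points) by the percent of cis events within 100 kb of the viewpoint, for 6718 viewpoints with the libraries summed. Coloured lines mark single viewpoints: Slc25a37 at 40.7% lies right of the bulk, its paralogue Slc25a28 at 24.8% lies near the median, and Hba-1 at 52.4% lies further out.

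To see where the near contacts fell, events were summed in windows of 5 kb outward from the viewpoint. Each window was set against the count expected for its distance, taken from all viewpoints and scaled to the events of Slc25a37 between 2.5 kb and 1 Mb. Observed over expected (O/E) is therefore a share of the viewpoint's own events, and a surplus in one place lowers the rest. On the upstream side, past a first window at expectation, 11 neighbouring windows from 7.5 to 62.5 kb were above expectation in every library, with 2884 events and an O/E of 2.28. On the side of the gene body, 9 neighbouring windows from 2.5 to 47.5 kb were above it in every library, with 2066 events and an O/E of 1.44. Past these ends the profile fell below expectation: of the next 38 windows upstream, to 252.5 kb, 35 had an O/E under 1, and of the next 41 on the gene side 37 did. The contact-rich stretch thus ran from just past the 3′ end of Slc25a37 to inside Entpd4, which encodes a nucleotidase of the Golgi and lysosomes.

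**Figure D2:**
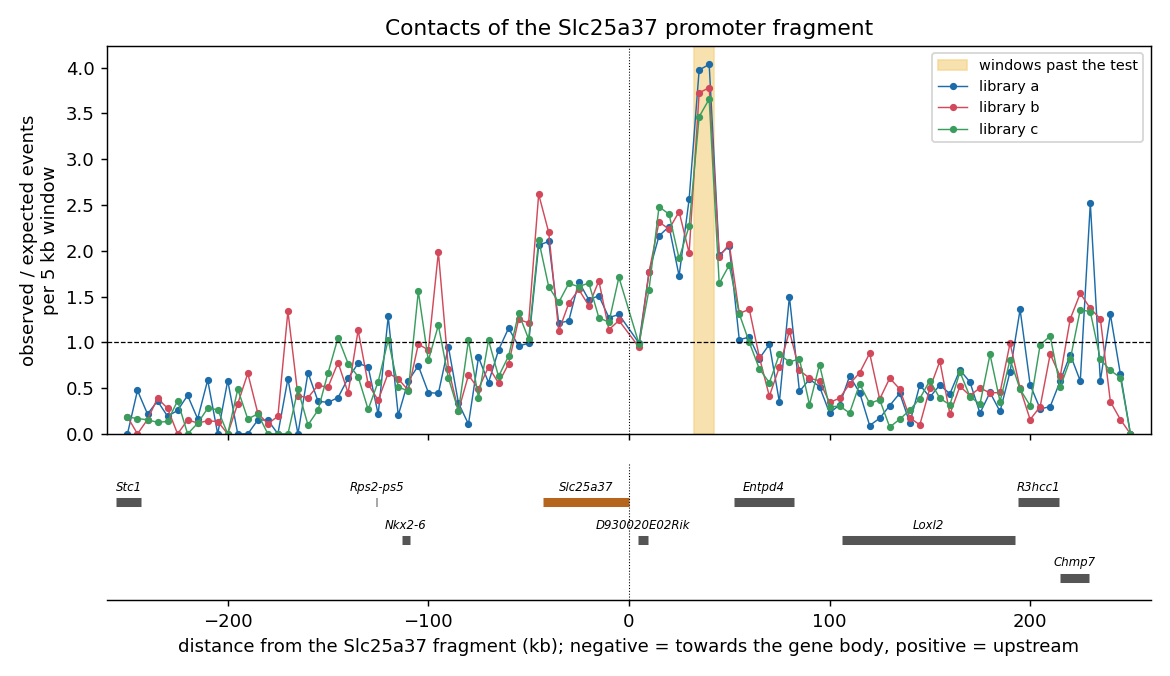
O/E per 5 kb window (vertical axis) against distance from the Slc25a37 fragment in kb, positive upstream, for libraries a (blue), b (red) and c (green), with the genes named in the text drawn below. The shaded windows, from 32.5 to 42.5 kb upstream, stand highest in all the libraries, between 3.46 and 4.04, and the dashed line marks an O/E of 1.

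The highest part of this stretch was a block upstream, from 32.5 to 42.5 kb. It lies in the interval between D930020E02Rik, a protein-coding gene just upstream of Slc25a37, and Gm16677, a long non-coding RNA gene that starts next to Entpd4. The window from 37.5 to 42.5 kb, chr14:69940462-69945461, held 124 events in library a, 152 in b and 151 in c. Expectation for the sum was 112, which gave an O/E of 3.81 (95% Poisson interval 3.46 to 4.19; mean over libraries 3.82 ± 0.19, SD, n = 3). The window from 32.5 to 37.5 kb, chr14:69935462-69940461, held 120, 148 and 141 events against 111 expected, an O/E of 3.70 (3.35 to 4.08; mean 3.72 ± 0.26, n = 3). In both windows every library was at least 3.46 times above its own expectation.

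These were the 2 windows of 396 tested around Slc25a37 that passed the test. A window was called when its upper-tail negative binomial p, after Benjamini-Hochberg adjustment across the windows of all viewpoints, was under 0.05 and each library lay over its expected count. These p-values are for the summed counts, and they measure a window against the spread between viewpoints at like distance, not the spread between libraries. Over all viewpoints 3581 of 2642571 windows were called, or 0.136%, and in the 2.5 to 52.5 kb range 0.197% of windows, against 2 of 20 for Slc25a37. The adjusted p was 0.00170 for 37.5 to 42.5 kb and 0.0215 for 32.5 to 37.5 kb. The dispersion was estimated without the highest 0.1% of counts in each distance bin. Both calls stood without library a, without b and without c (2859, 2317 and 2114 of the 2642571 windows then called). They also stood with 1% left out (0.364% of all windows then called). Neither stood with no counts left out (lowest adjusted p 0.335; 0.0235% of all windows called), and a Poisson model called 21 Slc25a37 windows and 6.01% of all.

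The block was not the work of a few fragments. Its 28 fragments, from 69935338 to 69945563, held 244 events in library a, 300 in b and 292 in c, or 6.23%, 5.08% and 5.10% of all cis events of the viewpoint. In the sum 27 of the 28 were above an O/E of 2, with a median of 3.55 and a highest value of 6.40. The exception was a fragment of 22 bases, with 7 events where 7.23 were expected. Fragment by fragment no contact was called: 0 of 4190 Slc25a37 fragments passed the negative binomial test, against 0.00347% of all fragments. The lowest adjusted p was 0.0602, and 108 of the 4190 had an unadjusted p under 0.05, a share itself under 0.05. When the dispersion was estimated without the top 1%, 4 fragments were called, all in this block, between 36.2 and 39.5 kb upstream (0.0108% of all fragments). With the expectation taken by fragment length class it was 6 (0.00747% of all). With no counts left out it was 0 (0.000766% of all), and with a Poisson model 85 (0.614%).

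**Figure D3:**
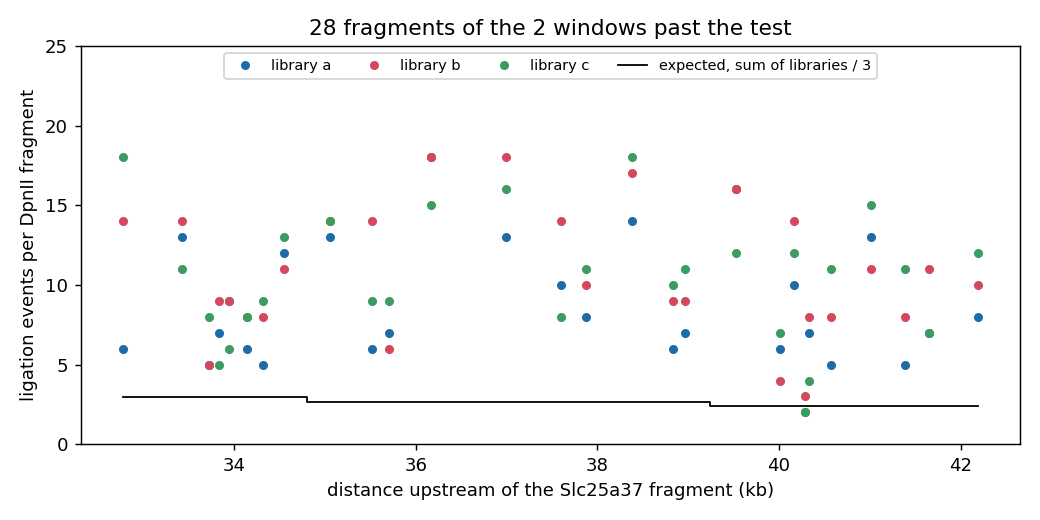
Ligation events per DpnII fragment (vertical axis) against distance upstream of the Slc25a37 fragment in kb, for the 28 fragments of the 2 windows past the test; points are libraries a (blue), b (red) and c (green). The black line is the count expected for the sum of the libraries divided by 3, and nearly all points lie above it.

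By excess over expectation, 16 of the 20 leading fragments were upstream, between 9.01 and 41.0 kb from the viewpoint, and 10 of them were in the block. The other 4 lay in intron 1 of Slc25a37. The highest O/E among those 20 was 6.40, at chr14:69938735-69939526, with 18 events in library a, 18 in b and 15 in c against 7.97 expected. Next came chr14:69940930-69941758, with 14, 17 and 18 events and an O/E of 6.15. The fragment chr14:69942030-69942936 followed with 16, 16 and 12 events and an O/E of 6.09. All the libraries were high in each of them. The fragment with the largest excess of all lay nearer, at 17.4 kb, chr14:69919953-69920862, with 12, 25 and 22 events against 14.1 expected. The expectation in this ranking did not take fragment length into account. The median length of the 20 was 735 bases against 277 for all fragments within 250 kb. The ranking was not repeated with length classes, so whether length bears on it was not tested. In the fragment test, length classes raised the called Slc25a37 fragments from 0 to 6 (0.00347% and 0.00747% of all fragments).

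Stretches of 200 bases of the fragments with the highest O/E are shown, since they lie in the block with the highest O/E near the promoter. Of the 6 highest, 5 held a GATA hexamer or a CACCC box, and the stretch richest in these letters was taken from each, read on the plus strand of mm9. Capitals mark GATA hexamers and CACCC boxes on either strand. The hexamers searched were AGATAA, its variant TGATAA, the form AGATAG and the form TGATAG. A box is CACCC, which reads as GGGTG from the other strand.
Fragment at 36.2 kb, chr14:69938871-69939070: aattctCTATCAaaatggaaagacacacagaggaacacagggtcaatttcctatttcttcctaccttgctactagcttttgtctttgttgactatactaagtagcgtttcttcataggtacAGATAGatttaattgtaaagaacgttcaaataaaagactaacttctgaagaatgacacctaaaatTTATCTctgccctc
Fragment at 38.4 kb, chr14:69941433-69941632: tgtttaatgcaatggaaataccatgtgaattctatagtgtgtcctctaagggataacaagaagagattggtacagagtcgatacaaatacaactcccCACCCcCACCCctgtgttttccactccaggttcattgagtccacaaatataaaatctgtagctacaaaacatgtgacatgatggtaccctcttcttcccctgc
Fragment at 39.5 kb, chr14:69942180-69942379: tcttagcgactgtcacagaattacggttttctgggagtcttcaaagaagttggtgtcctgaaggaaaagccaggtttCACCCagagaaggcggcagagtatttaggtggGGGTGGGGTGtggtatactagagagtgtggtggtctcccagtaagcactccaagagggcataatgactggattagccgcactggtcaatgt
Fragment at 37.0 kb, chr14:69939918-69940117: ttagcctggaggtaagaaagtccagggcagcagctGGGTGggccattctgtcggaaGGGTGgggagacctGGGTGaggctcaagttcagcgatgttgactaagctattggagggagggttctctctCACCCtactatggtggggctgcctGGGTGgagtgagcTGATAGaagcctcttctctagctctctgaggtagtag
Fragment at 35.1 kb, chr14:69937890-69938089: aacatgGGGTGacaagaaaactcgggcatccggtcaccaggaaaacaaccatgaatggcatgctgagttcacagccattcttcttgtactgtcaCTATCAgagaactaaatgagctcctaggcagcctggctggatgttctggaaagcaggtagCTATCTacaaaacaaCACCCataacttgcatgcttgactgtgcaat
A pair of neighbouring fragments, at 36.2 and 37.0 kb, held 5 GATA hexamers each over their whole length. A share of 6.52% and 8.06% of the chromosome's fragments within 10% of their length held as many.

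Against stretches of the whole chromosome, the letters of GATA were not frequent over the block and those of CACCC were. The 10226 bases held 23 GATA hexamers, where the median of 11882 stretches of that length on the chromosome was 27. They held 37 CACCC boxes against a median of 16, and 1.99% of stretches held as many. Of the 20 fragments with the largest excess, 18 held a CACCC box (90%) and 12 a GATA hexamer (60%). Among fragments of similar length on the chromosome these shares were 60.0% and 73.1%. Against the neighbourhood the reading for GATA turned with the number of fragments taken. The 20 fragments held 1.99 GATA hexamers per kb, and all fragments within 250 kb held 1.86. The leading 10 held 2.89 per kb and the leading 40 held 1.74. For CACCC boxes the 20 fragments held 3.98 per kb, the 10 held 4.08 and the 40 held 3.06, against 2.48. None of the 20 held the core of the CTCF motif, which 1.34% of the similar fragments held. No GATA hexamer shared a base with a CACCC box in the sequences shown. These are matches of letters and say nothing of what is bound there.

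Between the block and the promoter the upstream windows were also raised, though none passed the test. From 12.5 to 17.5 kb there were 109 events in library a, 148 in b and 163 in c, an O/E of 2.34 (interval 2.12 to 2.57; adjusted p 0.332). From 17.5 to 22.5 kb there were 88, 112 and 123 events, an O/E of 2.31 (2.06 to 2.57; adjusted p 0.336). The windows from 22.5 to 27.5 kb and from 27.5 to 32.5 kb had an O/E of 2.05 and 2.24. Library b was highest in the former, at 2.43, and library a in the latter, at 2.56. Beyond the block the values dropped at once, to 1.83 from 42.5 to 47.5 kb and 1.98 from 47.5 to 52.5 kb, over Gm16677 and the start of Entpd4. The window nearest to the promoter on this side, from 2.5 to 7.5 kb over D930020E02Rik, stood at expectation, with an O/E of 0.98 and library values from 0.95 to 0.99.

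On the other side the promoter met its own gene, with a second rise at the 3′ end. From 37.5 to 42.5 kb there were 35 events in library a, 48 in b and 36 in c, an O/E of 1.96 (1.62 to 2.34). From 42.5 to 47.5 kb, chr14:69855462-69860461, which holds the last bases of the gene and the sequence just past it, there were 31, 52 and 43 events, an O/E of 2.28 (1.90 to 2.72; adjusted p 0.509). The windows between these and the promoter ran from 1.21 to 1.61. The part of the gene from exon 2 to its end had an O/E of 1.81 (1.58 to 2.07; mean 1.82 ± 0.09, SD, n = 3) and intron 1 an O/E of 1.38 (1.31 to 1.44; mean 1.37 ± 0.08). The intervals do not overlap, and every library was higher in the 3′ part, but neither window there was called.

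By protein-coding gene and gap within 250 kb, the same interval led in all the libraries and Slc25a37 came next. The gap from D930020E02Rik to Entpd4 had the highest O/E of any interval with over 20 expected events, 2.46 (2.37 to 2.56), with 2.51 in library a, 2.48 in b and 2.40 in c. Slc25a37 itself followed with 1.41 (1.35 to 1.48), and D930020E02Rik stood at 1.12 (1.01 to 1.23). Entpd4 had an O/E of 0.919 (0.823 to 1.02), which did not differ from expectation beyond counting error. The gap from Slc25a37 to D930020E02Rik, with 167 events, was likewise at 0.989 (0.844 to 1.15).

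Genes further out were met less than their distance predicts. Loxl2, a lysyl oxidase that cross-links collagen, had an O/E of 0.429 (0.373 to 0.491), with 0.393 in library a, 0.498 in b and 0.389 in c. The gap between Entpd4 and Loxl2 was close to it, at 0.460 (0.377 to 0.556), and R3hcc1 stood at 0.557 (0.428 to 0.712). On the gene side the homeobox gene Nkx2-6 had 0.446 (0.283 to 0.669). The gap of 117 kb between Stc1 and Rps2-ps5 had 0.370 (0.320 to 0.425), low in every library. Stc1, a secreted hormone gene near the edge of the range, had 3 events against 21.9 expected, 2 of them in library a, 0 in b and 1 in c. Further upstream Chmp7, a component of the membrane-cutting ESCRT-III complex, was back at expectation, 0.975 (0.746 to 1.25).

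**Figure D4:**
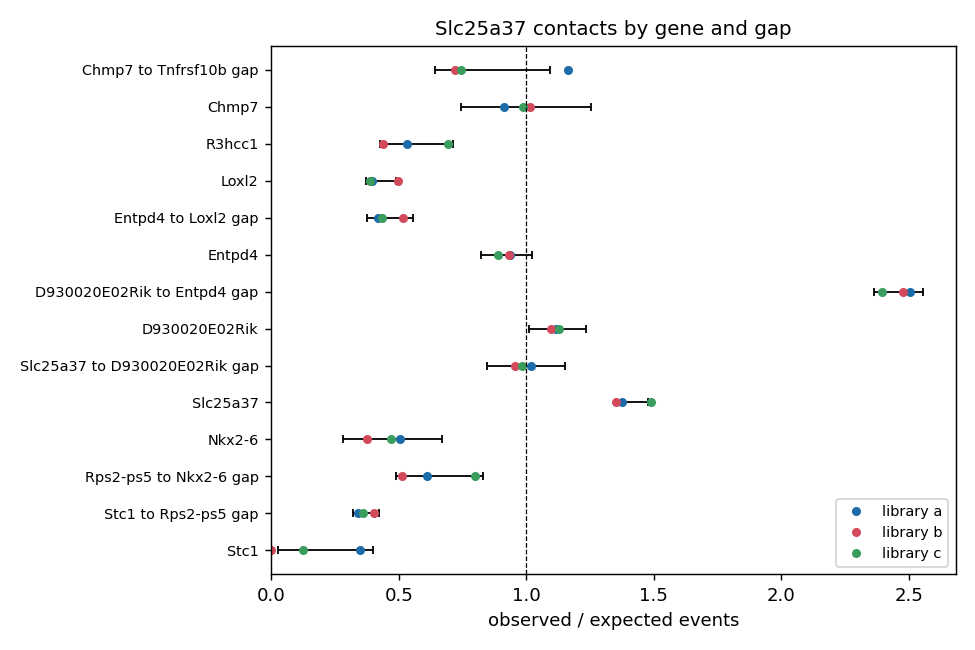
O/E of the Slc25a37 viewpoint (horizontal axis) in the protein-coding genes and gaps within 250 kb that are reported here and had at least 20 expected events, in chromosome order from bottom to top. Points are libraries a (blue), b (red) and c (green), bars are 95% Poisson intervals of the sum, and the gap from D930020E02Rik to Entpd4 stands highest at 2.46.

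Upstream contacts outnumbered those on the gene side. Between 2.5 and 250 kb, 59.4% of events fell upstream in library a, 58.9% in b and 56.7% in c (mean 58.3% ± 1.47, SD, n = 3), where fragment numbers and distances alone gave 51.4%. The sum was 58.2% (interval 57.0 to 59.4). This tilt was not rare, with place 852 of 5494 viewpoints of known strand, whose median was 48.9%. Beyond 250 kb both sides were poor in contacts, with an O/E of 0.504 upstream and 0.228 on the gene side. Upstream 120 of 149 windows lay under 1, and on the gene side 146 of 147. The highest upstream value there, 3.82 at 967.5 to 972.5 kb, rested on 7 events against 1.83 expected, with 2 in library a, 0 in b and 5 in c.

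The other viewpoints of the neighbourhood gave a view from outside. All 4 within 500 kb lie upstream, and none of them had a called window in the negative binomial test. Of 397 or 398 windows each, 14 to 19 had an unadjusted p under 0.05, a share itself under 0.05. The Poisson model called 2 to 25 windows at each, where 6.01% of all windows were called. With 1% left out of the dispersion, the negative binomial test called 2 windows at Gm16677_Entpd4 and 2 at the viewpoint shared by 4930480K23Rik and Chmp7, of 397 and 398 windows, a share near the 0.364% of all windows called at that setting. The nearest, Gm16677_Entpd4, lies 51.8 kb from Slc25a37 at the paired starts of those genes. It met the Slc25a37 gene body with 72 events in library a, 200 in b and 173 in c against 215 expected in all, an O/E of 2.07 (1.88 to 2.27; mean 2.02 ± 0.25, SD, n = 3). The raised values went on past the gene: from 50 to 150 kb on the gene side of the Slc25a37 promoter its O/E was 2.18 (2.02 to 2.35). At the block of the 2 called Slc25a37 windows, the same viewpoint had 36, 73 and 68 events, an O/E of 0.684 (0.587 to 0.792), low in every library. The low value was not particular to the block. The next bins towards Slc25a37 were lower, with 0.473 from 20 to 25 kb upstream of its promoter and 0.298 from 25 to 30 kb. Nearer still, from 0 to 20 kb, the bins lay between 1.00 and 1.39. The block lies much nearer to Entpd4 than to Slc25a37, so the distances differ; the expectation takes them into account. Fragments within 5 kb of the Slc25a37 viewpoint were met at 1.26 (1.00 to 1.56) from Entpd4, and those within 5 kb of the Entpd4 viewpoint at 1.62 (1.43 to 1.84) from Slc25a37. The difference between the viewpoints was not tested.

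**Figure D5:**
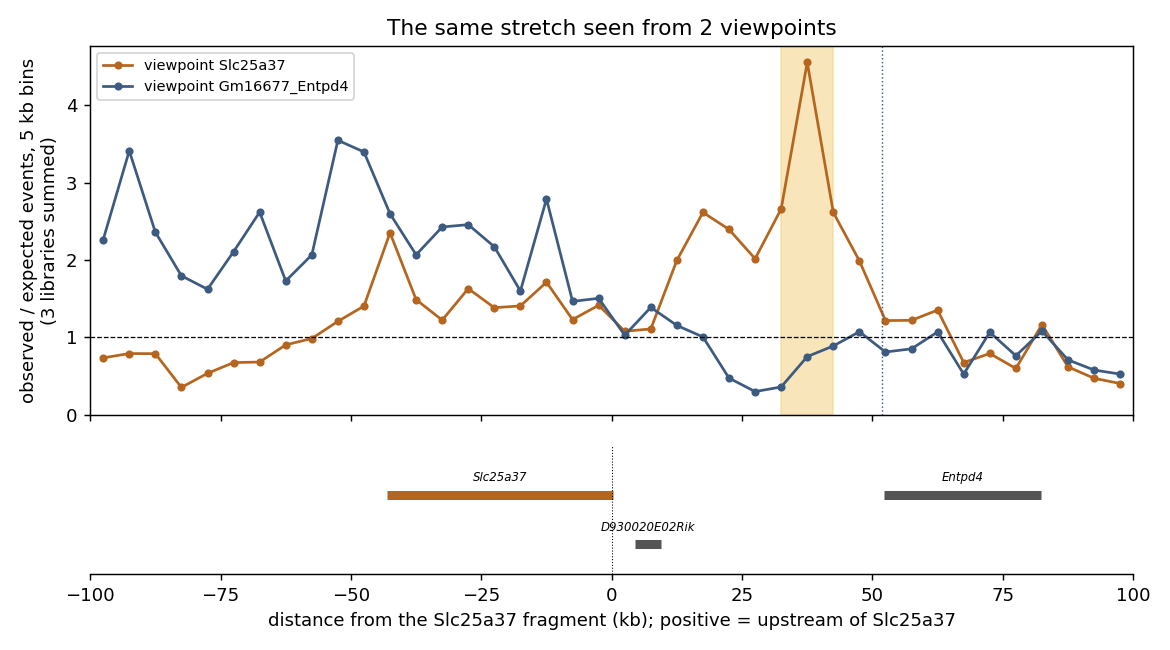
O/E in 5 kb bins with the libraries summed (vertical axis) against distance from the Slc25a37 fragment in kb, for the viewpoints Slc25a37 (brown) and Gm16677_Entpd4 (blue, at the dotted line), with genes below. In the shaded block Slc25a37 is at its highest. Entpd4 is below 1 there and lower still from 20 to 30 kb. Over the Slc25a37 gene body and past it Entpd4 is above 1.

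From Entpd4 the O/E just past the 3′ end of Slc25a37 was 3.55 in the bin from 50 to 55 kb on the gene side of its promoter and 3.40 from 45 to 50 kb. The viewpoint shared by 4930480K23Rik and Chmp7, 229 kb away, met the Slc25a37 gene body with 30, 45 and 41 events, an O/E of 2.30 (1.90 to 2.76; mean 2.31 ± 0.14, SD, n = 3). Its value past the gene was within the same interval, at 2.15 (1.88 to 2.46) from 50 to 150 kb on the gene side, where R3hcc1 had 2.40 (2.22 to 2.59) and Slc25a37 itself 0.748 (0.692 to 0.807). At the gene body R3hcc1 had only 1.27 (1.09 to 1.47), and Rhobtb2 had 1.59 (0.957 to 2.48). The 4930480K23Rik and Chmp7 viewpoint met the promoter flanks at 1.88 (1.21 to 2.80) and the block at 1.60 (1.09 to 2.25). Slc25a37 in turn met the flanks of that viewpoint at 1.44 (1.09 to 1.87), above expectation in every library. R3hcc1, at 205 kb, met the Slc25a37 flanks at 1.43 (1.07 to 1.87), but with 0.671 in library a and 1.95 in c. In the other direction the value was 0.461 (0.309 to 0.663). Rhobtb2 had 1, 3 and 1 events at the Slc25a37 flanks, too few to tell from the 2.89 expected.

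Among genes of iron and heme handling, chosen as a pathway list of 32, 26 had a viewpoint, and 29 viewpoints could be tested. Of these 12 had a called window (41.4%), against 24.9% of all 6718 viewpoints. The order turned with no counts left out of the dispersion, where 1 of the 29 (3.45%) had one against 6.31% of all. Of the heme synthesis viewpoints 4 of 9 had one: both of Alad, which makes porphobilinogen, with 1 window each, Ppox with 1, and Cpox, the oxidase of coproporphyrinogen, with 12 windows centred between 155 and 255 kb. Of the mitochondrial iron and heme carriers it was 5 of 10, among them Slc25a39 with 7 windows, Slc25a38 with 5, Iscu with 3 and Abcb6 with 1. Of the viewpoints of iron uptake and storage it was 3 of 10, with 2 windows for the transferrin receptor gene Tfrc, centred at 95 and 100 kb, and 1 each for Aco1 and Slc40a1. Among these viewpoints 5 had a larger share of events within 100 kb than Slc25a37, led by the ferritin gene Fth1 with 45.0%.

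Slc25a28 encodes the second mitoferrin, the form found in most tissues. Its viewpoint had 1563 cis events against 15550 for Slc25a37 and 0 called windows by the negative binomial test. Of its 398 windows 17 had an unadjusted p under 0.05, a share itself under 0.05. Its lowest adjusted p was 0.0228, in a window that was not above expectation in every library, and the Poisson model called 4 of 398, below the 6.01% of all windows. It had 24.8% of events within 100 kb. The depth differs so much that the lack of a call does not show that the pair of paralogues differ. The globin viewpoints each had called windows, 3 for Hba-1, 5 for Hba-2, 7 for Hbb-b1 and 6 for Hbb-b2, centred at 15 to 85 kb, a range that takes in the Slc25a37 block. Together that is 1.33% of their windows, against 0.136% of all. With no counts left out of the dispersion it was 0, 1, 3 and 2 in the same order (0.0235% of all windows). Hba-1 and Hba-2 are near-identical copies, so their reads are hard to tell apart. Shared sequence bears on Hbb-b1 and Hbb-b2 too: with short probes the paper found extra peaks there and calls them likely artefacts. Their highest O/E, between 4.96 for Hba-1 and 7.17 for Hbb-b1, lay above the 3.81 of the called Slc25a37 windows.

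The viewpoints whose profiles were most like that of Slc25a37 were sought by the Pearson correlation of log2 O/E, with a pseudocount of 1, over 5 kb windows within 250 kb, each gene turned 5′ to 3′. Of 3509 viewpoints the closest were Sphk1_a (r = 0.68), Taf3 (0.66), Nfe2_e (0.65), Gfi1b (0.65) and Sphk1_c (0.63), each over 97 or 98 windows, with a median of 0.02 over all. Among the genes of these viewpoints, only Nfe2 and Gfi1b encode transcription factors of the erythroid and megakaryocyte lineages. Both Sphk1 viewpoints are of the same gene, which encodes a sphingosine kinase. In 10 kb windows the places were 1 for Taf3, 2 for Sphk1_a, 3 for Gfi1b, 6 for Sphk1_c and 11 for Nfe2_e. Whether likeness goes with lineage was not tested. These values share the distance scale and are given as a description.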

How the data were processed

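The authors trimmed reads with Trim Galore, aligned them with Bowtie to mm9, and counted unique ligation events with the CCseqBasic programs. The deposited values are a signal, scaled by the authors to events per 100000 cis events of each viewpoint and library. Targeted fragments were left out. Aligner versions are not given in the sources used here. Their caller, peaky, was not run.

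Whole events were recovered as multiples of the lowest value that a viewpoint had in a library; 100% of values were whole to within 0.01 events. Summed depth was 18230099 events in library a, 34428035 in b and 34233560 in c. Tests used numpy 2.4.6 and scipy 1.17.1 in Python 3.11.15. The expected count was the mean of 1 of 50 distance bins over 6718 viewpoints with at least 1000 events, times the viewpoint's total from 2.5 kb to 1 Mb. The negative binomial dispersion was taken by moments per bin without the highest 0.1%, and p-values were adjusted by Benjamini-Hochberg over all windows or all fragments. O/E has exact Poisson 95% intervals and shares have Clopper-Pearson intervals, for counting error only. Genes are those of GENCODE vM1 and sequences those of NCBIM37, the same assembly as mm9.

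Named items were Slc25a37, the 10 windows with the highest O/E among those with at least 20 events, the 20 fragments with the largest excess, protein-coding genes within 250 kb, viewpoints within 500 kb, the 5 viewpoints most alike, 4 globin viewpoints and the pathway list. The gene and these lists were chosen with earlier results of these data known. A gene, a neighbouring locus and a sequence that these rules take in are not reported here. Alternatives covered the dispersion, window size, fragment length, depth and each library.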

Additional observations from a re-analysis of the deposited data

How the results depend on the processing

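The same 2 Slc25a37 windows were called with 1% left out of the dispersion (9606 of all 2642571 windows called) and with fragment length classes (2730). They were also called with a minimum of 5000 events (2934 of 1711083). Without library a, b or c the same 2 were called again (2859, 2317 and 2114 of 2642571). With no counts left out, 0 Slc25a37 windows were called (620 of 2642571). There was 1 with 10 kb windows (the whole block, 2471 of all 1318359 windows called). With 2 kb windows there were 3 (4499 of 6548118). A Poisson model called 21, and 6.01% of all windows. With summed counts over summed totals as the expectation, an alternative chosen after seeing the data, the number was 2. Called fragments rose from 0 to 4 with 1% left out, to 6 with length classes (0.00747% of all fragments) and to 85 with a Poisson model. The upstream share was 59.7% up to 1 Mb and 56.9% as a share of O/E. The local share was 35.4% within 50 kb and 45.8% within 250 kb, by construction of the ranges. The mean squared correlation of the libraries was 0.971 in 5 kb and 0.944 in 2 kb windows, against 0.799 for fragments. In 10 kb windows the most alike viewpoint was Taf3, with r = 0.76. Iron and heme viewpoints with a called window numbered 1 with no counts left out (3.45%, below the 6.31% of all viewpoints), 19 with 1% (65.5% against 47.7%) and 29 with Poisson (100% against 99.5%). Leaving out a library moved the upstream share between 57.8% and 59.1% and the local share between 39.3% and 42.5%. Of the genes and gaps, and of the neighbouring viewpoints' values at the gene body, the block and the flanks, Chmp7 (0.953 to 1.12), the gap from Slc25a37 to D930020E02Rik (0.873 to 1.00), and the block seen from R3hcc1 (0.971 to 1.20) and from Rhobtb2 (0.679 to 1.01) crossed an O/E of 1, and the others named in the text kept their side. The values from 50 to 150 kb and of single 5 kb bins had no alternative run. No paired analysis was possible because there is 1 group. The cause of these shifts was not tested.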
